A study of Mus musculus with 22 samples.

Results

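This section concerns 6 of the 22 samples of a study of H/ACA small nucleolar RNAs (snoRNAs) in mouse cells: the embryonic stem cell (ESC) samples of a retinoic acid (RA) experiment, in 2 sets of 3. Members were taken by their titles and descriptions, not by their values. The label fields contradict each other about which set was treated. Set B is titled ESC1 to ESC3, with ESCs as source and no treatment entry, but is described as mESCs with RA at T=6. Set A is titled as ESCs with RA, has RA in its source and treatment entries, but is described as untreated mESCs at T=0. All fields split the samples alike, so the data are given as set B against set A, and no direction of treatment is assigned. The treatment protocol gives 6 days of RA for ESC differentiation, while T has no unit in the descriptions. The series design names E14Tg2a as its mouse ESC line. The labels of these 6 samples give no line or clone, and do not tell if replicates came from separate cultures. The p-values therefore reflect only how far these samples scatter, possibly for technical reasons.

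H/ACA snoRNAs fold into hairpins that pair with a target RNA and direct the enzyme dyskerin to convert a chosen uridine to pseudouridine, mostly in ribosomal RNA (rRNA). Most vertebrate H/ACA snoRNAs lie in introns of other genes and are released when the host transcript is spliced and the intron is trimmed, so their level depends on the host's transcription and on their own processing and stability. RA drives ESCs out of the pluripotent state. Marker genes of pluripotency or of the RA response were not read here, because the 72 features are all snoRNAs, and neither the cell state nor the labels could be checked against them. In such bulk RNA, fewer cells of a type and less RNA per cell cannot be told apart.

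Each sample was measured with an nCounter, which counts colour-coded probes bound to RNA without amplification. Values are the deposited signal, here called normalized counts, and are listed for replicates 1, 3 and 4 by the number in the description (B1, B3 and B4, then A1, A3 and A4). Totals over the 72 features were 1668320.4, 1429521 and 1323727 in set B, against 1364612, 1466356 and 1371943 in set A. The mean log2 total differed by 0.07 between the sets (exact permutation test, two-sided, p = 0.7, where 3 against 3 samples allow no p below 0.1). Of the features, 34 matched a mouse gene symbol in the RefSeq table and 38 are listed by transcript ID only.

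Of the 72 features, 33 (45.8%) differed between the sets (limma on log2(value + 1), Benjamini-Hochberg adjusted p under 0.05). In set B 21 were higher (29.2%) and 12 lower (16.7%). The named snoRNAs supplied 8 of the higher and 5 of the lower features, 13 of 34 in all. The features listed by ID supplied 13 and 7, 20 of 38 in all. At least 2-fold differences were found for 9 of the higher and 8 of the lower features. The 3 samples of set B lay wholly above or below those of set A in 40 features (55.6%), the 33 among them. The other 7, all listed by ID only, missed the threshold. Log2 differences had a median of 0.16, with 45 features above 0 and 27 below. This median depended on single samples and on scaling: it was 0.011 without B1, 0.34 without B4, 0.090 without A1, 0.31 after median centring and 0.058 after mean centring.

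**Figure D1:**
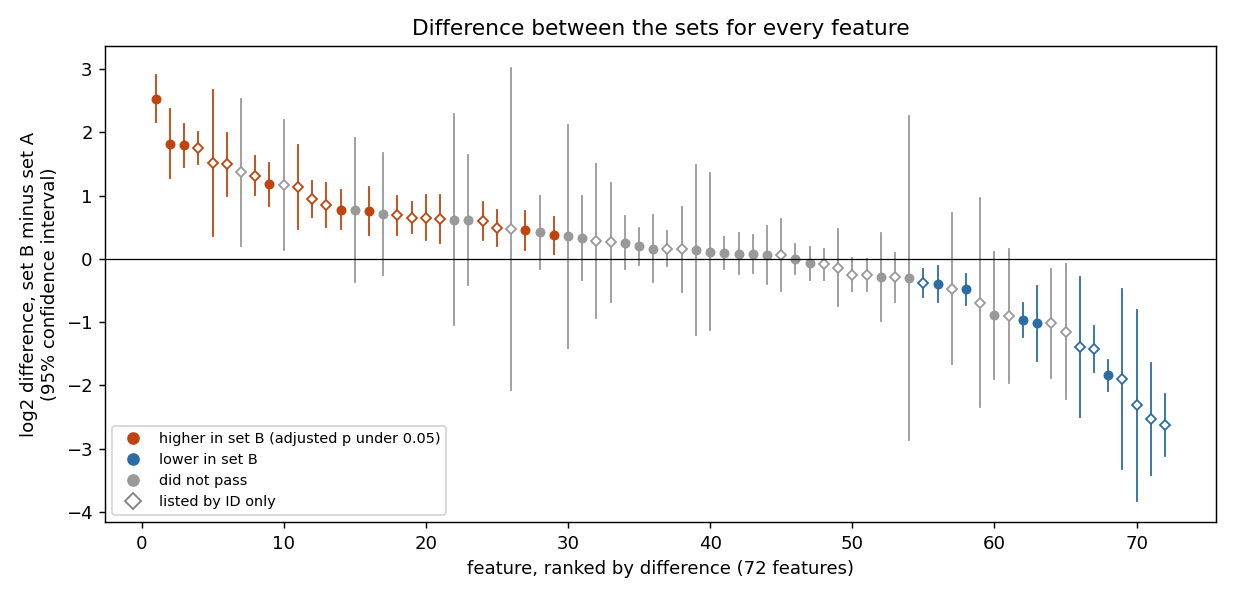
Each of the 72 features is placed by rank on the horizontal axis and by its log2 difference, set B minus set A, on the vertical axis, with its 95% confidence interval from limma. The 21 features higher in set B and the 12 lower lie mostly towards the ends, and the 39 grey features did not pass, among them those with the widest intervals.

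Host genes were assigned to the 34 named snoRNAs by position, without regard to strand. Of these, 12 host genes carry the 13 named snoRNAs that differed. The annotated starts of 10 of them are in the RefSeq table (build GRCm38.p6), and the other two were not used. They are shown because an intronic snoRNA is transcribed from its host's start. The sequences run from 50 bases before the start to 50 bases from the start on, and capitals mark an unbroken run of C or T that begins at the start itself. Zbed3 has 3 starts in the table, of which the first listed is shown. Hosts of snoRNAs higher in set B come first.
Zbed3 (chr13:95323555-95323654, plus strand): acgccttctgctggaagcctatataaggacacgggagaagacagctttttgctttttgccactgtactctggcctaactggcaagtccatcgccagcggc
Rab3gap2 (chr1:185204118-185204217, plus strand): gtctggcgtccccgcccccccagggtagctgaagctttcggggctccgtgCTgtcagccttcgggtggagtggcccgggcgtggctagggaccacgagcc
Srcap (chr7:127511933-127512032, plus strand): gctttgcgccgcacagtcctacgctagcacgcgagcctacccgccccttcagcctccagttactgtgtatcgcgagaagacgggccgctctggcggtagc
Eif5 (chr12:111538051-111538150, plus strand): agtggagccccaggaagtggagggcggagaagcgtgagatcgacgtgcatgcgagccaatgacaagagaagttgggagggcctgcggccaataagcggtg
Tbrg4 (chr11:6626018-6626117, minus strand): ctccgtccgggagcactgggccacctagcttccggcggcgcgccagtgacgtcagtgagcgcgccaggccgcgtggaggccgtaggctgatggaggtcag
Rpl10 (chrX:74270766-74270865, plus strand): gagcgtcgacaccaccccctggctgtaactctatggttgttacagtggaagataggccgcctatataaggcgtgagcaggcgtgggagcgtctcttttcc
Snhg7 (chr2:26640195-26640294, minus strand): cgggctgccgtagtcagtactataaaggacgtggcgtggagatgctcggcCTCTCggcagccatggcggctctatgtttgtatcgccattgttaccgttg
Rps12 (chr10:23787160-23787259, minus strand): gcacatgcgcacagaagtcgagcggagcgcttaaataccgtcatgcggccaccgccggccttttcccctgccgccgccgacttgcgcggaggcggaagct
Rplp2 (chr7:141447601-141447700, plus strand): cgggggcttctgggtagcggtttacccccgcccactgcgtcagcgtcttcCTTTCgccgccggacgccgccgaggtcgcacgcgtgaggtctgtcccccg
Snhg12 (chr4:132308628-132308727, plus strand): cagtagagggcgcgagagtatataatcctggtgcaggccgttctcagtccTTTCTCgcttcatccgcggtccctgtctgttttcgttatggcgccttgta

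A pyrimidine run at the start of an mRNA is the hallmark of the 5′ terminal oligopyrimidine (TOP) class, which holds many genes of the translation machinery and several snoRNA hosts. A run of at least 5 bases stood at the start of Snhg7, Snhg12 and Rplp2, 3 of 4 hosts of snoRNAs lower in set B, and at 0 of 6 starts of hosts of higher snoRNAs. Among the 18 other hosts with a start it stood at 3 (Snhg8, Ipo7 and Rpl27a), and among all 32851 starts of the table at 4.44%. This feature was looked for after the differences were seen, rests on 10 genes and was not tested. The half-sites AGGTCA and AGTTCA, which RA receptors bind in repeats, were searched on both strands of the 300 bases around each start, and 1 or both occur in 27.7% of all such windows. They occur in 2 of the 30 host windows, those of Tbrg4 and Htr2c, which host Snora5c and Snora35. Absence of these letters from a window says nothing about binding elsewhere.

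The largest difference of a named snoRNA was that of Snora47, hosted in Zbed3, a gene for a zinc finger protein that binds Axin. It had 1220.5, 1134 and 907 normalized counts in set B, against 181, 175 and 203 in set A. The lowest set B sample was thus far above the highest set A sample, and the fold was 5.77 (log2 difference 2.53 ± 0.15 SE, adjusted p 0.00013). Snora36b, which in human is a guide for 18S rRNA and lies in the Rab3 regulator gene Rab3gap2, had 1257, 946 and 771 in set B and 234, 283 and 312 in set A. Both sets were spread out and did not overlap (3.53-fold, log2 difference 1.82 ± 0.22 SE, adjusted p 0.0016). Snora30 is a guide for 28S rRNA in human and lies in Srcap, the gene of a chromatin remodelling ATPase. Its values were 10392, 13743 and 11059 in set B and 3370.5, 3375 and 3352 in set A, where the samples were nearly equal (3.46-fold, log2 difference 1.79 ± 0.13 SE, adjusted p 0.00029).

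Snora28, a guide for 18S rRNA in human, is hosted in Eif5, which encodes an initiation factor that acts in start codon recognition. It had 79405, 60468 and 67763 normalized counts in set B, against 28321, 31945 and 31115 in set A. Its mean share of the total signal was 4.70% in set B and 2.17% in set A, and the fold was 2.26 (log2 difference 1.18 ± 0.14 SE, adjusted p 0.0016). Among the features listed by ID, ENSMUST00000083719.1 had 3274, 3625 and 3565 in set B and 1098, 992 and 1017 in set A, with little spread in either (3.37-fold, log2 difference 1.75 ± 0.10 SE, adjusted p 0.00013). ENSMUST00000083155.1 had 12040.4, 5721 and 4159 in set B and 1645, 2349 and 3202 in set A. The sets did not overlap, but B1 was far above B3 and B4 (2.85-fold, log2 difference 1.51 ± 0.46 SE, adjusted p 0.044). Its call was lost without B1, B3, A1, A3 or A4 (adjusted p 0.058, 0.095, 0.14, 0.12 and 0.06) and under quantile normalization (adjusted p 0.071). The call was also lost with a replicate block by description number or by title number.

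The other 4 named snoRNAs higher in set B differed less. Snora68, a guide for 28S rRNA in human, had 28782, 36789 and 30929 in set B and 18878, 18109 and 19007 in set A (1.71-fold, log2 difference 0.78 ± 0.12 SE, adjusted p 0.005). Snora7a, hosted in Rpl32 and likewise a 28S guide in human, had 12227, 17398 and 14558 in set B and 8759, 8318 and 8861 in set A (1.69-fold, log2 difference 0.75 ± 0.15 SE, adjusted p 0.012). In both the set A samples lay within a narrow range and the set B samples were wider apart, with B3 highest. Snora70, an 18S guide in human hosted in Rpl10, had 42206, 34724 and 35309 in set B and 28029, 29786 and 28804 in set A (1.29-fold, log2 difference 0.37 ± 0.12 SE, adjusted p 0.047). Snora5c lies in Tbrg4, which encodes a mitochondrial RNA-binding protein, and had 18431, 16314 and 15534 in set B and 10963, 12976 and 12881 in set A (1.37-fold, log2 difference 0.45 ± 0.12 SE, adjusted p 0.033). In Snora70 and Snora5c B1 was highest, and the sets did not overlap.

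The calls of these smaller differences depended on scaling. After centring on the mean log2 value none of Snora68, Snora7a, Snora70 and Snora5c passed (log2 differences 0.68, 0.65, 0.27 and 0.35, adjusted p 0.074, 0.1, 0.35 and 0.22). All of them were also lost under quantile normalization and with a replicate block by description number. With a block by title number all but Snora68 were lost. Snora70 and Snora5c were lost after median centring, and Snora5c also with another prior. Snora7a, Snora70 and Snora5c were also lost without A1 (adjusted p 0.051, 0.16 and 0.12) and without A3 (adjusted p 0.063, 0.13 and 0.089). Snora70 and Snora5c were lost without A4 (adjusted p 0.13 and 0.08) and without B3 (adjusted p 0.057 and 0.069), and Snora70 also without B4 (adjusted p 0.064).

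Among snoRNAs lower in set B, Snora43 had the largest difference of those with a name. It is a guide for 28S rRNA in human and lies in the non-coding host gene Snhg7. It had 3960.4, 4161 and 3584 normalized counts in set B, against 13893, 14121 and 13912 in set A. Both sets were tight, and the level in set B was 3.59-fold lower (log2 difference −1.84 ± 0.10 SE, adjusted p 0.00013). Snora33, a 28S guide in human hosted in Rps12, had 10329, 9371 and 6984 in set B and 13676, 18873 and 21709 in set A. A1 was the lowest of its set and B1 the highest of its own, without overlap (2.02-fold lower in set B, log2 difference −1.02 ± 0.24 SE, adjusted p 0.019). Snora52, also a 28S guide in human, lies in Rplp2, the gene of an acidic protein of the ribosomal stalk. It had 11717, 11598 and 9861 in set B and 21859, 21221 and 21461 in set A (1.95-fold lower in set B, log2 difference −0.96 ± 0.11 SE, adjusted p 0.0016).

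Both measured snoRNAs of the non-coding gene Snhg12 were lower in set B. Snora16a had 67657, 60336 and 59684 in set B and 87272, 87113 and 87647 in set A (1.40-fold lower in set B, log2 difference −0.48 ± 0.10 SE, adjusted p 0.012). The set A samples were nearly equal, while set B spanned a wider range. Snora44, a guide for 18S rRNA in human, had 32954, 36065 and 30564 in set B and 41312, 42931 and 47426 in set A (1.32-fold lower in set B, log2 difference −0.40 ± 0.11 SE, adjusted p 0.035). Of the features listed by ID, ENSMUST00000083331.1 had 1862, 1285 and 1930.2 in set B and 10801, 11239 and 9091 in set A (6.20-fold lower in set B, log2 difference −2.63 ± 0.20 SE, adjusted p 0.00029). ENSMUST00000104426.1 had 766, 325 and 370.2 in set B and 2216, 2809 and 2901 in set A, with B1 well above B3 and B4 (5.80-fold lower in set B, log2 difference −2.54 ± 0.35 SE, adjusted p 0.0029). These were the largest differences of all features, in either direction.

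Snora16a and Snora44 were not called after median centring (log2 differences −0.33 and −0.25, adjusted p 0.42 and 0.55), nor without A1 (adjusted p 0.057 and 0.08), A3 (adjusted p 0.072 and 0.12) or A4 (adjusted p 0.06 and 0.12), and Snora44 not without B4 (adjusted p 0.076). Snora33 was lost without B3, A3 or A4 (adjusted p 0.051, 0.075 and 0.06) and, like Snora44 and Snora52, under quantile normalization (adjusted p 0.054 for each). After mean centring Snora16a and Snora44 did not pass (adjusted p 0.072 and 0.12). With a replicate block by description number or by title number Snora33, Snora16a and Snora44 were lost. Snora44 was also lost in the fit over all 7 groups. Snora47, Snora36b, Snora30, Snora28, Snora43 and 7 features listed by ID passed under all 16 alternatives fitted, 8 of these 12 higher and 4 lower in set B.

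**Figure D2:**
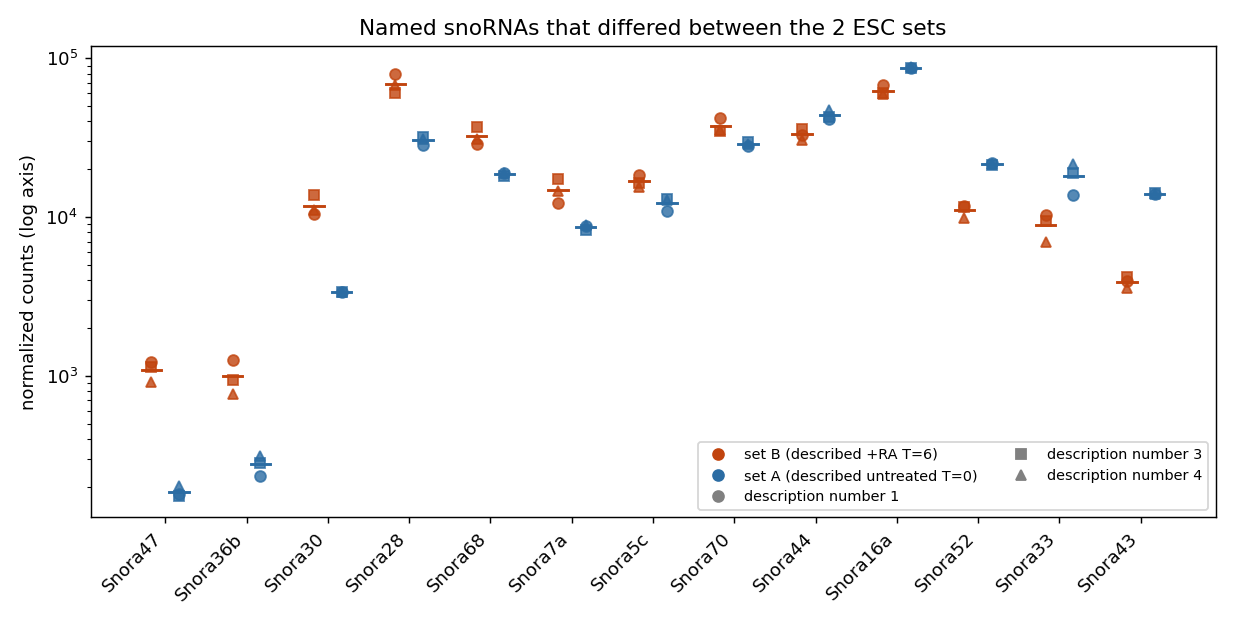
Normalized counts, on a log axis, of the 13 named snoRNAs that differed, for set B (left of each pair) and set A; points are samples, their shape gives the replicate number in the description and bars give the mean of 3. No set B point lies among the set A points, and the difference of the means is widest for Snora47 and narrowest for Snora70, Snora44 and Snora5c.

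By rRNA target in human, 8 guides for 18S rRNA were measured, of which 4 were higher in set B (Snora36b, Snora28, Snora5c and Snora70), 1 was lower (Snora44) and 3 did not pass (Snora15, Snora24 and Snora41). Over all features 29.2% were higher and 16.7% lower. The median log2 difference of the 18S guides was 0.41, beside 0.16 over all features. Of the 17 guides for 28S rRNA 3 were higher (Snora30, Snora68 and Snora7a), 3 were lower (Snora43, Snora33 and Snora52) and 11 did not pass, with a median of 0.16. After mean centring 2 of the 18S guides and 1 of the 28S guides were still called higher, with medians of 0.31 and 0.06, and 1 and 3 were called lower. The 18S guide called lower was then Snora24, since Snora44 no longer passed.

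By host, 8 snoRNAs lie in Snhg genes, which give long non-coding RNAs that carry snoRNAs in their introns. 0 were higher, 3 were lower (Snora43, Snora16a and Snora44) and 5 did not pass, where 29.2% of all features were higher and 16.7% lower. The median was −0.24. It was −0.09 after median centring, with 1 member called. Snora73a of Snhg3, which is needed for processing of pre-rRNA, had 110526, 141084 and 139911 in set B and 123032, 119067 and 125976 in set A, with overlap (log2 difference 0.08, 95% interval −0.25 to 0.41). Snora74a of Snhg4 had 46618, 58633 and 50906 in set B and 48422, 48317 and 50855 in set A (log2 difference 0.08, interval −0.22 to 0.37). Both differences were below 0 after mean centring (−0.02 for each).

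Of 10 snoRNAs in genes with numbered ribosomal protein symbols, 3 were higher, Snora7a and Snora70 among them, and Snora33 was lower, where 29.2% and 16.7% of all features were. The median was 0.31. Snora78, which lies within both Rps2 and Snhg9, is counted here and among the 8 in Snhg genes. Snora52 in Rplp2 and Snora62 in Rpsa also lie in ribosomal protein genes but fall outside that symbol rule. Snora62, a 28S guide in human, had the smallest difference of all features, with 7672, 7433 and 7184 in set B and 7032, 7511 and 7761 in set A (log2 difference −0.0003, interval −0.23 to 0.23, and 0.15 after median centring). Of 4 snoRNAs hosted in translation factor genes or in Tpt1, 1 was higher (Snora28) and 3 did not pass, with a median of 0.59. Of the 13 in all other hosts 4 were higher and 1 lower, with a median of 0.16. The shares over all features, 29.2% and 16.7%, stand beside these counts too. Under quantile normalization 0 of the 10 snoRNAs in ribosomal protein genes and 2 of the 8 in Snhg genes were called, with medians of 0.35 and −0.34.

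Host genes with 2 measured snoRNAs allow a comparison within each sample, which a scaling factor common to its features hardly moves. For Snhg7, the log2 ratio of Snora43 over Snora17 was −2.92, −2.79 and −2.83 in set B, against −1.04, −1.06 and −1.11 in set A. The sets were far apart relative to their spread, and the mean ratio was 1.77 lower in set B on the log2 scale (exact permutation test, two-sided, p = 0.1, the smallest that 3 against 3 can give). Snora17, a 28S guide in human, itself had 29895, 28849 and 25433 in set B and 28586, 29534 and 30029.8 in set A (log2 difference −0.07, interval −0.33 to 0.19, adjusted p 0.65). Snora43 and Snora17, which share a host gene, differed unequally between the sets.

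For Kansl2, which encodes a subunit of a histone acetyltransferase complex, the log2 ratio of Snora34 over Snora2b was 0.05, 0.37 and 0.57 in set B, against 0.80, 0.60 and 0.74 in set A. The sets did not overlap, but B4 and A3 nearly met (difference −0.38, exact permutation p = 0.1). The difference was −0.24 without B1 (exact permutation p = 0.2) and −0.50 without B4. Neither snoRNA passed on its own with the deposited scaling in the fit of both sets, and Snora2b did after median centring and in the fit over all 7 groups. For Snhg12, the ratio of Snora16a over Snora44 was 1.04, 0.74 and 0.97 in set B, against 1.08, 1.02 and 0.89 in set A, with overlap (difference −0.08, exact permutation p = 0.6). For Rps2, the ratio of Snora64 over Snora78 was 3.02, 1.22 and 1.09 in set B, against 1.59, 2.41 and 1.76 in set A. The difference was −0.14 (exact permutation p = 0.9). B1 lay above every set A sample, while B3 and B4 lay below every one. Snora78 also lies within Snhg9, which is on the opposite strand from Rps2. Hosts were assigned by position without regard to strand, so whether Snora64 and Snora78 share a host transcript is not settled here. The 4 p-values were not adjusted, since 0.1 is the smallest each can reach.

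**Figure D3:**
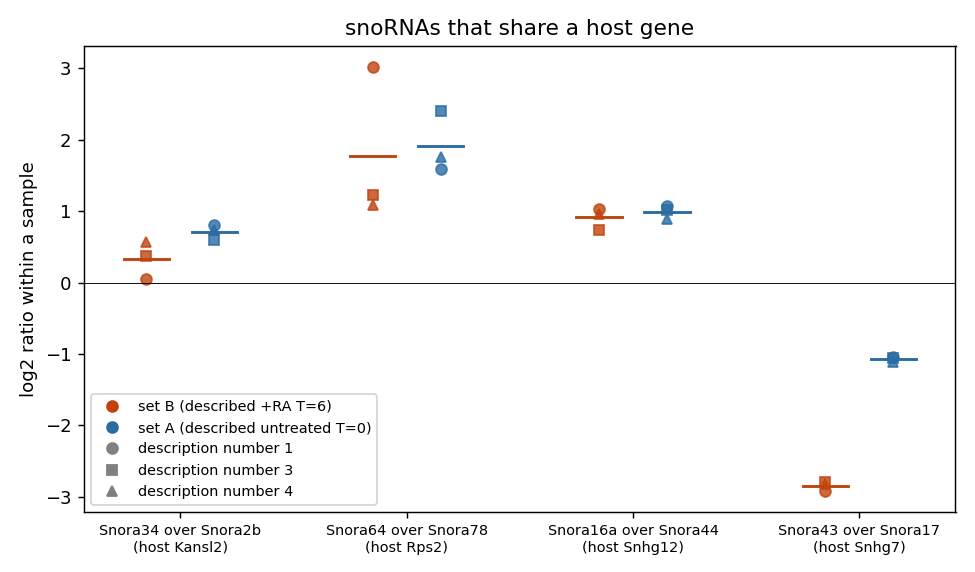
The log2 ratio of 2 snoRNAs placed by position in the same host gene, within each sample, for set B (left) and set A. Points are samples and bars are means of 3. For Snhg7 all 3 set B samples lie between −2.92 and −2.79 and all 3 set A samples between −1.11 and −1.04, while for Snhg12 and Rps2 the sets overlap.

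Samples within a set were not equally alike. In set B 24 of 72 features spanned over 2-fold between the highest and the lowest sample, against 6 in set A, and the median span was 1.43-fold in set B and 1.18-fold in set A. B1 was the highest set B sample in 23 of these 24 features, and in 47 of all 72. B4 was the lowest in 19 of the 24. B1 was also the sample with the highest total. Snora75, hosted in the nucleolin gene Ncl, had the widest span of a named snoRNA, with 33612, 9133 and 2332 in set B and 10230.5, 19818 and 6631 in set A. B1 exceeded B4 14.4-fold, A3 exceeded A4 2.99-fold, and the log2 difference between the sets was −0.30 (interval −2.87 to 2.26).

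Snora81, a 28S guide in human hosted in the helicase gene Eif4a2, had 88003, 39634 and 17890.1 in set B and 41648, 45121 and 15848 in set A (log2 difference 0.36, interval −1.40 to 2.12). Snora65 of Rpl12 had 6069.7, 4402 and 1078 in set B and 1698, 2036 and 2293 in set A, and B4 alone fell below set A (log2 difference 0.62, interval −1.04 to 2.28). Snora69 of Rpl39 had 33262, 12995 and 8879.7 in set B and 9865, 16375 and 17801 in set A, and B1 lay far above the rest. Snora64 of Rps2 had 28866, 11971 and 8099 in set B and 10696, 17020.0 and 12171 in set A. In both, B1 lay above every set A sample and B4 below every one.

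Features with a wide span in set B tended to have one in set A too (Pearson's r = 0.75 between log2 spans, across 72 features of the same 6 samples). Over all 72 features, 26 spanned over 2-fold in cardiomyocytes at day 16 and 5 in ESCs of the aMHC-puro line at day 0. Of the 24, 17 were among these 26 and 3 among these 5. Of the 20 that were measured in all groups, 5 spanned over 2-fold in RAW264.7 macrophages, where 6 features in all did. In NIH3T3 fibroblasts and in spermatogonial stem cells 0 of the 20 did, but there 0 of all features did. The part of this variation in the differences between the sets was not tested.

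**Figure D4:**
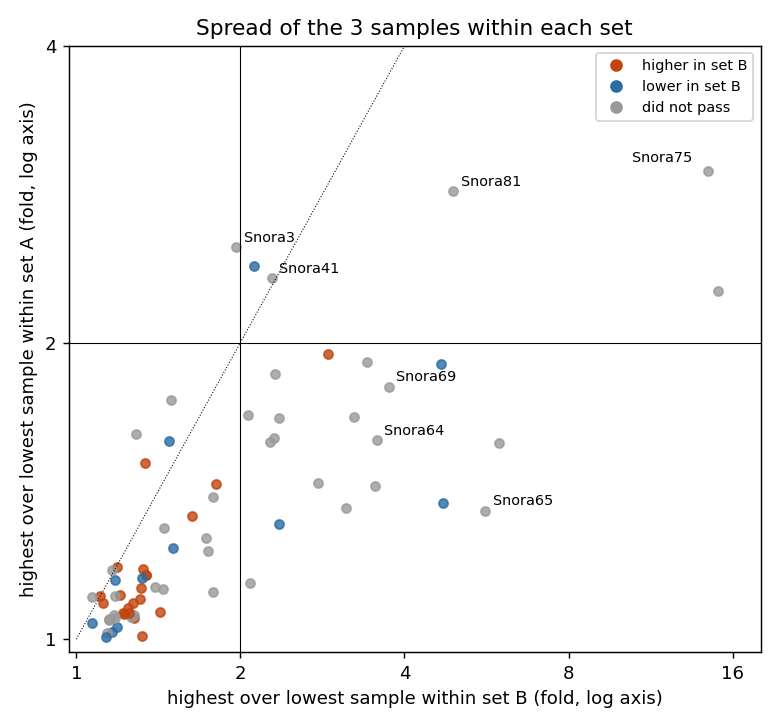
Highest over lowest of 3 samples within set B (horizontal, log axis) and within set A (vertical, log axis) for each of 72 features, coloured by their call, with lines at 2-fold and a dotted line of equal span. Most coloured points cluster near 1 on both axes, and Snora75 lies far to the right at 14.4-fold in set B and 2.99-fold in set A.

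Without B1, 36 features passed (50%), 20 higher (27.8%) and 16 lower (22.2%), and 31 of the 33 calls made with it were kept. Snora24 and Snora15, both 18S guides in human, were then called lower. Snora24 of Snhg8 had 62825, 28241 and 26708 in set B and 77933, 81089.8 and 48339.8 in set A. B1 lay within set A while B3 and B4 lay below it, and the log2 difference was −0.90 with B1 (adjusted p 0.13) and −1.29 without it (adjusted p 0.018). It was also called lower after mean centring (adjusted p 0.025) and in a fit over all 7 groups of the series (adjusted p 0.011). Snora15 of the chaperonin gene Cct6a had 21721, 13672 and 10443 in set B and 16878, 19256 and 17376 in set A. B1 was the highest of all 6 samples, and the log2 difference was −0.29 with B1 (adjusted p 0.48) and −0.58 without it (adjusted p 0.036). It was also called lower under quantile normalization (adjusted p 0.026). Without B4, Snora65 was called higher. Without A1, A3 or A4 the count fell to 18, 17 and 21, all of them among the 33.

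The remaining named snoRNAs did not pass with the deposited scaling. Snora41 of Eef1b2, Snora2b, Snora3 of Rpl27a, Snora31 of Tpt1 and Snora34 had log2 differences of 0.77, 0.71, 0.61, 0.42 and 0.33, with adjusted p between 0.20 and 0.38. After median centring Snora41 and Snora2b were called higher (adjusted p 0.040 and 0.032), and in the fit over all 7 groups Snora2b and Snora31 were (adjusted p 0.034 and 0.048). Snora78, Snora21 of Rpl23, Snora23 of Ipo7 and Snora26 of the non-coding gene Dancr had differences of 0.25, 0.19, 0.16 and 0.09 and adjusted p between 0.24 and 0.61. Snora26 had 49209, 55374 and 56554 in set B and 49039, 51344 and 50595 in set A, with an interval of −0.16 to 0.34. Snora35, which lies in the serotonin receptor gene Htr2c and is known for expression in brain, held only 43.1, 33.2 and 29.7 in set B and 31.0, 39.4 and 30.4 in set A, in normalized counts. It is 1 of 5 features near the floor of the table that are blank in 10 samples of the series, and the handling of background is not stated in the labels. Of these 5, ENSMUST00000083277.1, with 23.3, 21.5 and 11.0 in set B and 65.1, 62.3 and 27.2 in set A, is 1 of the 12 features called lower and was named after its values were seen (log2 difference −1.39, adjusted p 0.049). Its call was lost in 8 of the 14 alternatives that included it, among them leaving out B1, B3, B4, A1 or A3, and ENSMUST00000083277.1 then had adjusted p up to 0.15 and log2 differences from −1.79 to −0.62 over all 14.

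Levels of the 5 named snoRNAs that passed under all alternatives are given in every group, without a test (normalized counts, mean ± SD, n = 3 a group and 4 for spermatogonial stem cells). Snora47 averaged 1087 ± 162 in set B and 186 ± 14.8 in set A. In cardiomyocytes at day 16 Snora47 averaged 944 ± 506, and in aMHC-puro ESCs at day 0 234 ± 31.5. It averaged 653 ± 92.8 in spermatogonial stem cells, 2037 ± 84.1 in NIH3T3 and 1133 ± 159 in RAW264.7. Snora36b averaged 991 ± 246 in set B and 276 ± 39.3 in set A. In cardiomyocytes at day 16 Snora36b averaged 387 ± 141, and in aMHC-puro ESCs at day 0 294 ± 57.6. It averaged 799 ± 93.6 in spermatogonial stem cells, 301 ± 20.4 in NIH3T3 and 1647 ± 337 in RAW264.7. Of the 5 snoRNAs, the mean in cardiomyocytes was nearer to set A for Snora36b and Snora28 and nearer to set B for Snora47. For Snora30 and Snora43 that mean lay between the sets, with a wide spread. Snora30 averaged 11731 ± 1774 in set B and 3366 ± 12.4 in set A. In cardiomyocytes at day 16 Snora30 averaged 7200.0 ± 3481, and in aMHC-puro ESCs at day 0 4222 ± 947. It averaged 13914 ± 2635 in spermatogonial stem cells, 3726 ± 302 in NIH3T3 and 7069.6 ± 421 in RAW264.7. Snora28 averaged 69212 ± 9551 in set B and 30460.1 ± 1898 in set A. In cardiomyocytes at day 16 Snora28 averaged 37393 ± 11570.5, and in aMHC-puro ESCs at day 0 31437 ± 6472. It averaged 29332 ± 3752 in spermatogonial stem cells, 48049 ± 4527 in NIH3T3 and 49057 ± 2125 in RAW264.7. The set B samples of Snora28 were the highest of all 22 samples. Snora43 averaged 3902 ± 293 in set B and 13976 ± 127 in set A. In cardiomyocytes at day 16 Snora43 averaged 8334 ± 4619, and in aMHC-puro ESCs at day 0 16361 ± 2836. It averaged 3223 ± 712 in spermatogonial stem cells, 9130.4 ± 724 in NIH3T3 and 12768 ± 474 in RAW264.7. None of these values was used to decide which set had been treated.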

How the data were processed

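Signals of 72 H/ACA snoRNA features in 22 samples were deposited by the authors as 1 table of normalized counts. The normalization method is not given in the sources at hand. In the 6 samples used, every value was a whole multiple of 1 step per sample (0.975 to 1.16, tolerance 0.02 of a step), and these multiples summed to between 1204963 and 1465676. Values were taken as log2(value + 1) and set B was compared with set A using limma 3.58.1 in R 4.3.3 (lmFit and eBayes, 3 samples a set, 72 features, no filter, Benjamini-Hochberg adjustment, threshold 0.05). Single ratios and totals were compared by exact permutation tests over every split of the samples, written in Python 3.11.15. The fit was also run on simulated data with independent features and equal spread in both sets. That checks the code and not the calls made here, where set B was wider than set A in 64 of 72 features. Alternatives were 3 scalings, 2 pseudocounts, a filter, another prior, all groups in 1 fit, replicate blocks and leaving out each sample.

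All 34 features with a RefSeq symbol are named, and of those listed by ID the 2 with the largest difference in each direction. Guide lists rest on human counterparts. Members and lists were chosen with earlier results of these data known. Sequences are from RefSeq (GRCm38.p6), and sequences of the snoRNAs themselves were not used here.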

Additional observations from a re-analysis of the deposited data

How the results depend on the processing

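Of 33 features that differed, 12 passed under all 16 alternatives. The count was 20 (10 higher in set B) under quantile normalization, 27 (17 higher, 10 lower) after median centring and 25 (12 higher, 13 lower) after mean centring. It ranged from 17 to 36 without 1 sample (12 to 21 higher and 5 to 16 lower). The split was 21 higher and 12 lower with either pseudocount. Deviations of same-numbered samples from their set means had r of −0.36, −0.35 and 0.33 by description number. By title number r was −0.36, −0.63 and −0.16. With only 3 samples a set, these values cannot tell if the numbers pair the samples. With a replicate block by description number 14 features passed (8 higher, 6 lower), and with a block by title number 15 (10 higher, 5 lower). The difference in totals was −0.032 on the log2 scale after mean centring and ranged from −0.026 to 0.14 without 1 sample.

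A feature listed by ID and called higher in set B changed sign among the alternatives. Its log2 difference was 0.60 with the deposited scaling (limma, adjusted p 0.012) and as low as −0.44 among the alternatives. Differences near 0 also changed sign with scaling. After median centring Snora62 was at 0.15 and Snora17 at 0.080. After mean centring Snora74a was at −0.024, Snora35 at −0.037, Snora73a at −0.019 and Snora26 at −0.0078. Under quantile normalization Snora78 was at −0.19 and Snora26 at −0.10. Without 1 sample the log2 difference ranged from −0.40 to 0.51 for Snora64, −0.40 to 0.55 for Snora69, −0.040 to 0.031 for Snora62, −0.014 to 0.15 for Snora74a, −0.086 to 0.18 for Snora35, −1.26 to 0.67 for Snora75, −0.02 to 0.32 for Snora23 and −0.22 to 0.93 for Snora81. The difference in log2 ratio within a sample ranged from −0.50 to −0.24 for Snora34 over Snora2b, from −0.76 to 0.20 for Snora64 over Snora78, and from −0.14 to 0.0064 for Snora16a over Snora44. The cause of these changes was not tested. The planned count-model alternatives were not run, because with 72 features the table holds too few low values to settle its whole multiples as counts.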
